A study of Mus musculus with 12 samples.

Results

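Nodal, Lefty and Cripto signalling is described here through 9 genes: the ligand *Nodal*, its antagonists *Lefty1* and *Lefty2*, the coreceptor Cripto (*Tdgf1*), the receptors *Acvr1b*, *Acvr2a* and *Acvr2b*, and the SMADs *Smad2* and *Smad3*. Members were the probes that the array design names for these genes, which gave 13 probes of 41174, and 9 of the 18844 genes that could be tested. RNA of E14.5 mouse gonads was measured on 12 single-colour arrays, on which the brightness of a spot reports how much labelled RNA its probe bound, with 3 arrays in each of 4 groups and 1 pair of gonads per array. The study asked what germ cells of the fetal ovary become when *Smad4* and *Stra8* are lost, and the comparisons show where genes of the Nodal pathway stood in those ovaries. All embryos were on a mixed background and received tamoxifen at E9.5 and E10.5. The 3 control testes were Smad4Flox/+ StellaMerCreMer Stra8+/-. Control ovary 1 had that same genotype, control ovary 2 was Smad4Flox/+ Stra8+/- without Cre, and control ovary 3 was Smad4Flox/Flox Stra8+/- without Cre. The *Smad4 (Stella)* ovaries were Smad4flox/floxMerCreMer Stra8+/− and the DKO ovaries Smad4flox/floxMerCreMer Stra8−/−, so that every group except the DKO ovaries carried 1 intact *Stra8* allele. The Cre is driven by the *Stella* element and acts in germ cells, where deletion is incomplete and varies between embryos, while the RNA came from whole gonads. Fewer cells of a type and less RNA per cell cannot be told apart in such samples.

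Nodal is a secreted ligand of the TGFβ family that binds a complex of type I (ACVR1B) and type II (ACVR2A, ACVR2B) activin receptors together with the coreceptor Cripto. The activated receptor phosphorylates SMAD2 and SMAD3, which enter the nucleus with SMAD4 and switch on targets that include *Nodal* itself and the *Lefty* genes. Lefty proteins are secreted and block Nodal, which closes a feedback loop. In the fetal mouse gonad this pathway is known to be active in germ cells of the testis, where it precedes the male germ cell program.

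The level of each secreted factor was read by a single probe of 60 bases. The first 30 bases of these 3 probes are shown because the results turn on them and because *Lefty1* and *Lefty2* are close relatives, with probes that start 40.2 kb apart on chromosome 1.
*Nodal*, chr10:60887790-60887849 of mm9, from base 1798 of its transcript: ttattagattataaacgagccatttggttc
*Lefty1*, chr1:182868137-182868196 of mm9, from base 1208 of its transcript: ctttcatgcaaatctgaagtgctcattata
*Lefty2*, chr1:182827977-182828036 of mm9, from base 1204 of its transcript: ttgtcctaacttagtgctctcgtcagacct
Over their whole length the *Lefty1* and *Lefty2* probes shared no run longer than 7 bases. All 3 coordinates run along the forward strand.

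Levels are given as log2 of the spot intensity minus the 75th percentile of its array, so that 0 is that percentile and 1 unit is a doubling. They compare arrays for a given gene, never a gene with another. The 75th percentile of the intensity ran from 476 to 996.7 and the share of probes well above background from 58.8% to 70.7%, both lowest in control ovary 1. The lowest level that still counted as well above background lay between -6.19 and -5.12, depending on the array. A gene was called when limma gave an adjusted p (Benjamini-Hochberg over all genes) under 0.05 and the difference was at least 1.5-fold. Of the targeted genes, *Smad4* was at 2.20 ± 0.19 in control, 2.17 ± 0.09 in *Smad4 (Stella)* and 2.08 ± 0.12 in DKO ovaries (SD, n = 3), and it was not called in any comparison. *Stra8* was at 6.44 ± 0.27 in control ovaries and 5.45 ± 0.23 in DKO ovaries, where 1 spot marked as an outlier left 2 arrays. It fell by 0.99 on the log2 scale (limma, adjusted p = 0.00945). The sources used here do not place either probe relative to the deleted part, so these values are no check of the deletion.

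In DKO ovaries 2 of the 9 genes were called against control ovaries, *Nodal* and *Lefty1*, and both rose. Over all genes 14.7% were called in this comparison. The median difference was 0.37 over the 9 genes and 0.00296 over all genes. In *Smad4 (Stella)* ovaries 0 of the 9 genes were called, where 0.138% of all genes were. Between control testes and control ovaries 5 of the 9 were called, beside 33.8% of all genes: *Nodal*, *Lefty1*, *Lefty2* and *Acvr1b* were higher in testes and *Acvr2a* was lower. Between DKO and *Smad4 (Stella)* ovaries only *Nodal* of the 9 was called, beside 8.38% of all genes. Comparisons that share a group, such as the first 3 of these, are not independent of each other.

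*Nodal* was well above background on all 12 arrays. Its level was -4.56, -4.22 and -3.86 in the 3 control ovaries. In *Smad4 (Stella)* ovaries it was -3.79, -4.79 and -4.49, within and around the control range. In DKO ovaries it was -1.53, -0.84 and -2.46, and in control testes -1.94, -1.92 and -1.26. All 3 DKO ovaries and all 3 testes lay above every control and every *Smad4 (Stella)* ovary, and the DKO ovaries and testes overlapped. In DKO against control ovaries the difference was 2.60 ± 0.40 (SE) on the log2 scale, a 6.08-fold rise (limma, adjusted p = 0.00116). Against *Smad4 (Stella)* ovaries, which differ from DKO ovaries by their *Stra8* allele, it was 2.75 ± 0.40, or 6.72-fold (limma, adjusted p = 0.0021). Loss of *Smad4* with *Stra8* still heterozygous gave -0.14 with a 95% interval from -1.03 to 0.74 (limma, adjusted p = 0.869), so that smaller changes in either direction could not be told from none with these arrays. Control testes were 5.68-fold above control ovaries (log2 2.51 ± 0.40, limma, adjusted p = 0.000503).

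A direct comparison of DKO ovaries with control testes was added after the values had been seen. Over all genes 25.6% were called in it, and 30.9% between *Smad4 (Stella)* ovaries and testes. *Nodal* differed by 0.10 between DKO ovaries and testes, with an interval from -0.79 to 0.99 (limma, adjusted p = 0.869), and was lower by 2.65 ± 0.40 in *Smad4 (Stella)* ovaries than in testes (log2 difference -2.65, limma, adjusted p = 0.000411). The last of these was lost when the slide was a term of the model, at -1.89 with an adjusted p of 0.11 from limma.

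The arrays lay on 3 slides, which did not hold the groups evenly. Control ovary 1 and the testes shared a slide, control ovaries 2 and 3 shared another with DKO ovaries 1 and 2, and DKO ovary 3 was with the *Smad4 (Stella)* ovaries. Within a slide *Nodal* was higher by 2.86 in DKO than in control ovaries, by 1.90 in the DKO ovary than in *Smad4 (Stella)* ovaries, and by 2.85 in testes than in the control ovary, each on the log2 scale. These are as large as the values over all arrays in 2 of the 3 comparisons and smaller in the comparison that rests on DKO ovary 3. No slide held both *Smad4 (Stella)* and control ovaries, so this comparison has no value within a slide. With the slide as a term, *Nodal* in *Smad4 (Stella)* against control ovaries turned to 0.96 and remained uncalled (limma, adjusted p = 0.517).

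**Figure D1:**
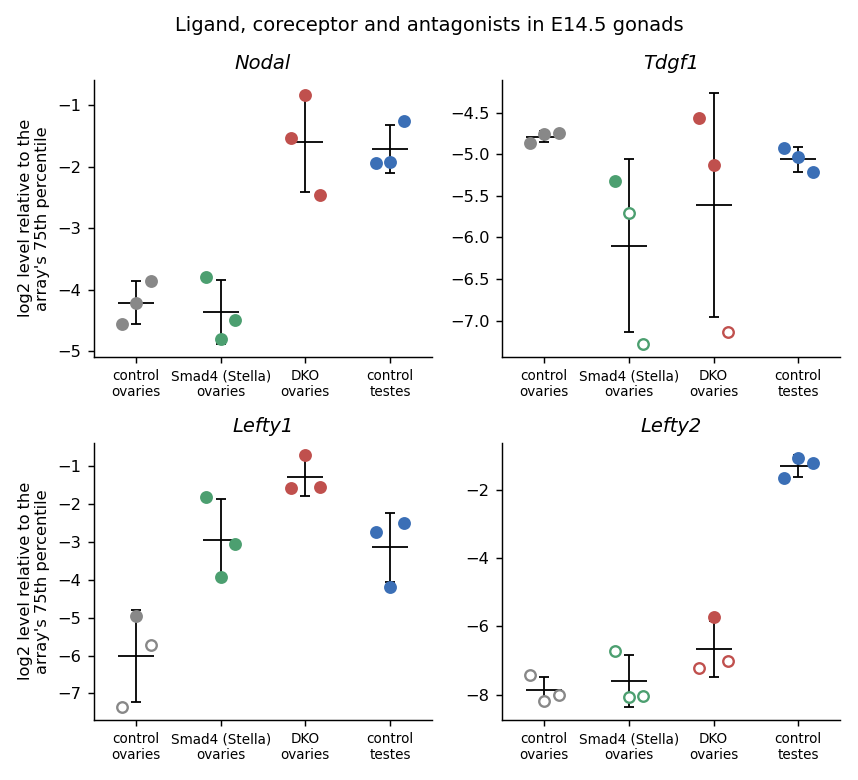
Level of *Nodal*, *Tdgf1*, *Lefty1* and *Lefty2* on each of the 12 arrays (vertical axes: log2 level relative to the array's 75th percentile, with its own range in each panel; 3 arrays per group). Filled points were well above background and open points were not; the long horizontal mark is the group mean and the whiskers are ± 1 SD. *Nodal* was high in DKO ovaries and control testes, *Lefty1* was lowest in control ovaries, and *Lefty2* was high in the testes.

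*Lefty1*, an antagonist and target of Nodal, followed another order over the groups. It was at -7.36, -4.97 and -5.73 in the control ovaries, of which only control ovary 2 was well above background. In *Smad4 (Stella)* ovaries it was at -1.81, -3.94 and -3.06, and in DKO ovaries at -1.59, -0.72 and -1.55. In control testes it was at -2.73, -4.18 and -2.51. All 9 arrays of these 3 groups were well above background and lay above every control ovary, and each DKO ovary lay above each testis and each *Smad4 (Stella)* ovary.

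*Lefty1* passed the filter on dim probes through the other 3 groups and not through control ovaries. Higher values in those groups were thus favoured in advance. Its fitted differences from control ovaries use levels that were not well above background. The fitted rise of *Lefty1* in DKO over control ovaries was 4.73 ± 0.69 on the log2 scale, or 26.6-fold (limma, adjusted p = 0.00088). In testes it was 2.88 ± 0.69, or 7.34-fold (limma, adjusted p = 0.00619). *Smad4 (Stella)* ovaries differed from control ovaries by 3.08 ± 0.69, a value larger than that of the testes, yet it missed the threshold (limma, adjusted p = 0.0792, 95% interval 1.54 to 4.62). The adjustment differs between these comparisons because far fewer genes passed in *Smad4 (Stella)* ovaries. DKO and *Smad4 (Stella)* ovaries differed by 1.65 ± 0.69 (limma, adjusted p = 0.161), so no change of *Lefty1* between them was called. DKO ovaries and testes differed by 1.86 ± 0.69 (limma, adjusted p = 0.0591), and *Smad4 (Stella)* ovaries and testes by 0.21 with an interval from -1.34 to 1.75 (limma, adjusted p = 0.834). Where all 3 arrays of a group lay above all 3 of the other, the exact two-sided permutation test gave p = 0.1, which is the smallest that 3 arrays against 3 allow.

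Because *Lefty1* was dim in 2 of the 3 control ovaries, its folds against them depend on how dim spots are treated. Setting every level below the detection limit of its array to that limit, a choice made after the values were seen, gave 3.98 in DKO ovaries, 2.33 in *Smad4 (Stella)* ovaries and 2.13 in testes. Without control ovary 1, the lowest array, the values were 4.06, 2.41 and 2.21. With normexp background correction they were 2.26, 0.92 and 1.13, and the testis difference was then no longer called (limma, adjusted p = 0.0576). *Nodal* fell to 1.63 in DKO ovaries and 1.44 in testes with that correction and was called in both. Within a slide *Lefty1* was higher by 4.19 in DKO than in control ovaries, by 4.22 in testes than in the control ovary, and by 1.39 in the DKO ovary than in *Smad4 (Stella)* ovaries. Between DKO ovaries and testes the slide term moved *Lefty1* to -0.02, and between *Smad4 (Stella)* ovaries and testes to -1.41.

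*Lefty2*, the other antagonist, was high in testes alone. It was at -1.66, -1.06 and -1.22 in the control testes. It was not well above background in any control ovary (-7.43, -8.17 and -8.02) or *Smad4 (Stella)* ovary (-6.72, -8.06 and -8.03). In DKO ovaries it was at -7.22, -5.73 and -7.02, of which only DKO ovary 2 was well above background. The gene passed the filter on dim probes through the testes only, so that a large difference from them was bound to appear. A group without a measured array gives only a bound, in which each dim array counts at its detection limit or its own level, whichever is higher. On this basis testes exceeded control ovaries in *Lefty2* by at least 19.3-fold and *Smad4 (Stella)* ovaries by at least 22.7-fold. These bounds carry no test. The adjusted p of 1.54e-06 and 2.39e-06 from limma belong to the fitted differences, which use values under the detection limit. Against testes the fitted difference of DKO ovaries was -5.34, and it was -4.19 with every level set to at least the detection limit of its array. As only 1 of the 3 DKO arrays measured the gene, neither value is a measured change, and with normexp the difference was not called (-1.65, limma, adjusted p = 0.137). In DKO against control ovaries the fitted difference was 1.22 (limma, adjusted p = 0.0767) and no fold can be given. Quantile normalization and leaving out *Smad4 (Stella)* ovary 1 each put it past the threshold, at adjusted p of 0.0235 and 0.0437 from limma.

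The group means of *Nodal*, *Lefty1* and *Lefty2* were also put in order. From high to low the mean of *Nodal* went DKO ovaries, testes, control ovaries, *Smad4 (Stella)* ovaries, with neither the first pair nor the last pair differing beyond the spread. For *Lefty1* the order was DKO ovaries, *Smad4 (Stella)* ovaries, testes, control ovaries, and of its neighbours only testes and control ovaries were separated by the test. For *Lefty2* the testes stood above DKO, *Smad4 (Stella)* and control ovaries, whose values lay near or under the detection limit. With the slide as a term, *Smad4 (Stella)* ovaries moved above control ovaries for *Nodal*, and testes moved above both mutant groups for *Lefty1*. The test had separated none of these pairs. There *Nodal* stood above control ovaries by 2.86 in DKO ovaries, 2.85 in testes and 0.96 in *Smad4 (Stella)* ovaries, and *Lefty1* by 4.19, 4.22 and 2.81.

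*Tdgf1* encodes Cripto, the membrane-bound coreceptor without which Nodal signals poorly. Its probe, chr9:110843254-110843313 of mm9, was dim. Levels were -4.87, -4.76 and -4.75 in control ovaries and -4.93, -5.04 and -5.22 in testes, all 6 well above background. In *Smad4 (Stella)* ovaries they were -5.32, -5.71 and -7.28, with the first alone measured, and in DKO ovaries -4.57, -5.13 and -7.13, with the last not well above background. The lowest *Tdgf1* values of both mutant groups stood apart from the other arrays of their group and had no counterpart among the controls. However, the *Smad4 (Stella)* ovaries and DKO ovary 3, which gave the lowest values of all arrays, shared a slide that held no control. Slide and genotype cannot be told apart there. No comparison of *Tdgf1* was called. The difference of *Smad4 (Stella)* from control ovaries was -1.31, with an interval from -2.68 to 0.06 (limma, adjusted p = 0.273), and it turned to 0.94 with the slide as a term (limma, adjusted p = 0.666). With levels set to the detection limit where they fell below it, *Tdgf1* passed the threshold in DKO against *Smad4 (Stella)* ovaries, at 0.61 (limma, adjusted p = 0.045), although 3 of these 6 arrays were not well above background. With the slide as a term the same difference was -1.03 (limma, adjusted p = 0.41), in the opposite direction.

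The receptors moved by far less than the ligand and its antagonists. *Acvr1b* encodes the type I receptor ALK4, which carries the kinase that acts on SMAD2 and SMAD3. It was at 2.01, 1.92 and 1.97 in testes, above all 9 ovaries. Control ovaries were at 1.51, 1.25 and 1.29, *Smad4 (Stella)* ovaries at 0.94, 1.24 and 1.27 and DKO ovaries at 1.36, 0.98 and 1.44, and these 3 groups overlapped. Testes exceeded control ovaries by 0.62 ± 0.14, or 1.53-fold (limma, adjusted p = 0.00462). They exceeded DKO ovaries as well, which were 1.63-fold lower (log2 difference -0.70, limma, adjusted p = 0.00317), and *Smad4 (Stella)* ovaries, which were 1.76-fold lower (log2 difference -0.81, limma, adjusted p = 0.00101). These folds lay close to the limit of 1.5. All 3 calls were lost with the slide as a term (log2 differences of 0.46, -0.56 and -0.85). Each was lost in 3 of 10 alternative settings, not counting arrays left out. Leaving out control ovary 2 ended the first (0.57) and leaving out DKO ovary 2 the second (-0.56), each through the fold. A second *Acvr1b* probe, chr15:101041440-101041497 of mm9, was too dim to be kept.

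*Acvr2a*, a type II receptor shared by activins and Nodal, was the only gene of the 9 that was called lower in testes than in control ovaries. It was at -3.09, -3 and -3.27 in testes and at -2.60, -2.42 and -2.48 in control ovaries, without overlap. *Smad4 (Stella)* ovaries were at -2.62, -2.55 and -2.62 and DKO ovaries at -2.70, -2.63 and -2.73, between those groups and closer to the control ovaries. The testis difference was -0.62 ± 0.10, or 1.53-fold (limma, adjusted p = 0.000409). Its 2 probes gave -0.45 and -0.79. The call was lost through the fold with the slide as a term (-0.52), without control ovary 2 (-0.58) and without control testis 3 (-0.54), and relative to the germ cell gene *Ddx4* the difference was -0.05. In total 6 of 10 alternative settings, not counting arrays left out, lost the call.

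*Acvr2b*, the other type II receptor, was at -0.74, -0.06 and -0.72 in control ovaries, while *Smad4 (Stella)* ovaries were at 0.06, -0.02 and 0.02, DKO ovaries at -0.45, 0.42 and 0.32 and testes at -0.21, -0.30 and -0.16. No comparison was called. Its DKO mean was the highest and its control ovary mean the lowest, with 1 array of each group inside the range of the other. Its probe spans an exon junction, with its ends at chr9:119337671-119339026 of mm9.

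*Smad2* and *Smad3* encode the SMADs that the receptor activates. *Smad2* varied least: it was at 1.81, 1.69 and 1.84 in control ovaries, while *Smad4 (Stella)* ovaries were at 1.58, 1.77 and 1.60, DKO ovaries at 1.91, 1.63 and 1.71 and testes at 1.45, 1.49 and 1.45. Testes lay below every ovary. The difference from control ovaries was -0.32 ± 0.10 (limma, adjusted p = 0.0235), under the 1.5-fold that a call required, and it turned to 0.25 relative to *Ddx4*, which was itself lower in testes. *Smad3* was at -2.20, -1.98 and -2.36 in control ovaries, while *Smad4 (Stella)* ovaries were at -1.94, -2.05 and -2.11, DKO ovaries at -1.81, -1.57 and -2.04 and testes at -2.19, -2.36 and -2.30. DKO ovaries differed from control ovaries by 0.37 ± 0.14 (limma, adjusted p = 0.0819). Its 2 probes gave 0.43 and 0.31, and the first of them, with an adjusted p of 0.0129 over all probes from limma, remained under 1.5-fold. Against testes the same probe was 0.66 higher in DKO ovaries (limma, adjusted p = 0.000693 over all probes), past both thresholds, while the gene, as the mean of both probes, was higher by 0.47 (limma, adjusted p = 0.0215) and under 1.5-fold. These are amounts of RNA, and the arrays do not measure phosphorylated SMAD protein.

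**Figure D2:**
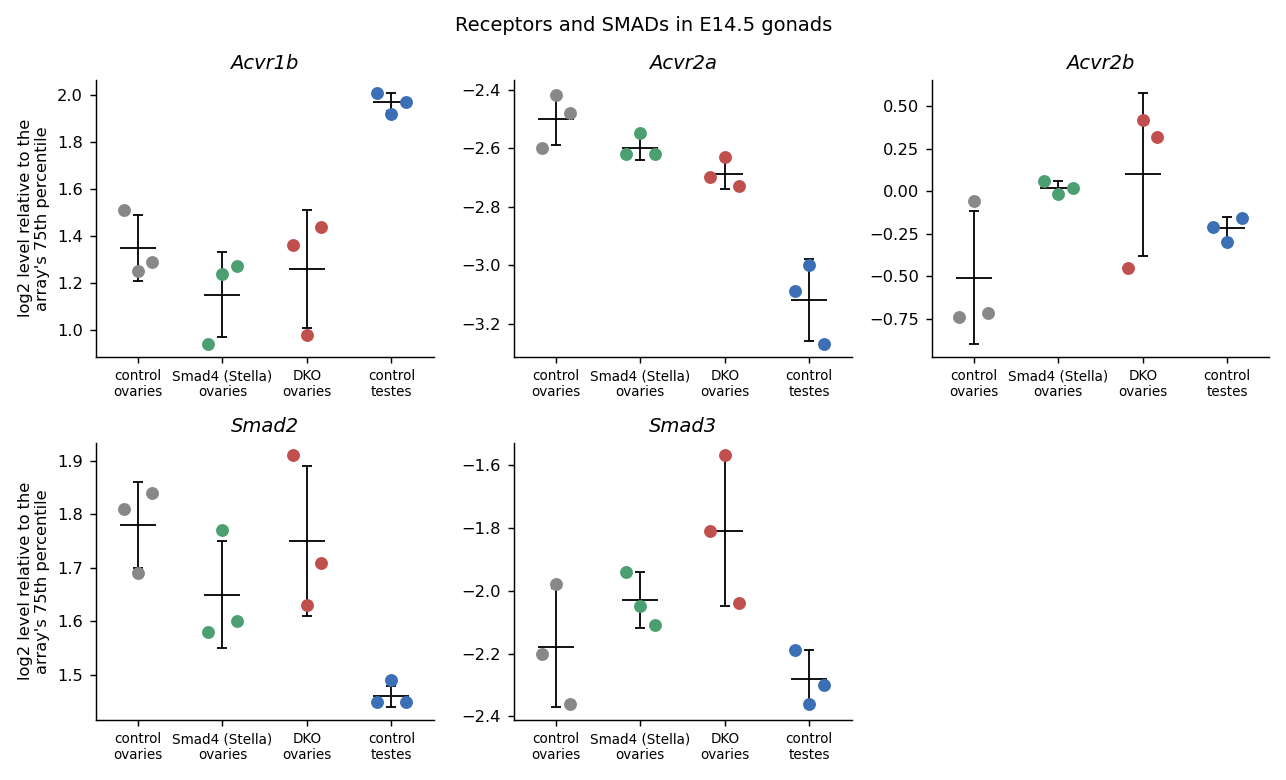
Level of the 3 receptors and the 2 SMADs on each of the 12 arrays (vertical axes: log2 level relative to the array's 75th percentile, with its own narrow range in each panel; long marks: group means; whiskers: ± 1 SD; 3 arrays per group). *Acvr1b* was highest in testes, *Acvr2a* and *Smad2* were lowest there, and *Acvr2b* and *Smad3* overlapped between most groups.

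**Figure D3:**
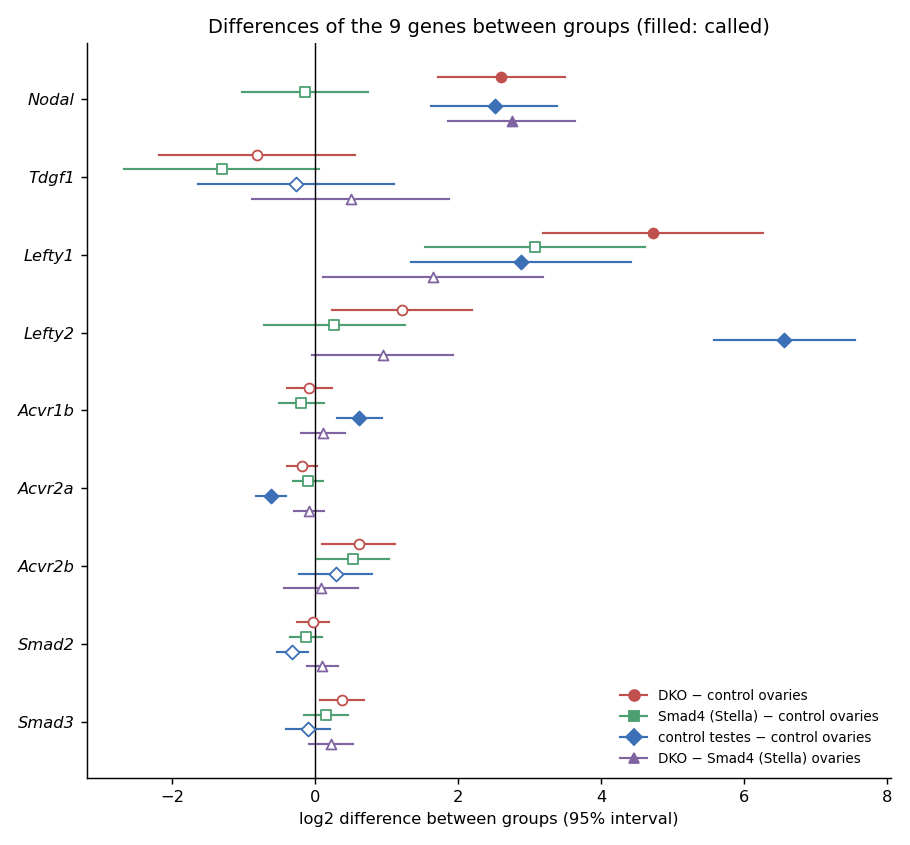
Difference between groups for each of the 9 genes (horizontal axis: log2 difference with its 95% interval from limma; colours and symbols: the 4 planned comparisons; filled symbols: called; fitted values are plotted also for *Lefty2*, which was under background in control ovaries). *Nodal* was called in DKO ovaries and in testes but stood at -0.14 in *Smad4 (Stella)* ovaries, and the intervals of receptors and SMADs are narrow beside those of *Lefty1* and *Tdgf1*.

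Germ cell content was set beside these values. *Ddx4* (Mvh), a gene of germ cells of both sexes, was at 5.06 ± 0.24 in control, 4.81 ± 0.13 in *Smad4 (Stella)* and 5.20 ± 0.24 in DKO ovaries and 4.49 ± 0.12 in testes (SD, n = 3). Relative to *Ddx4* on the same array, *Nodal* rose by 2.46 and *Lefty1* by 4.59 in DKO ovaries, and by 3.07 and 3.44 in testes (limma, adjusted p from 0.000118 to 0.0022). This scaling moved the median of all genes to -0.14 in DKO ovaries, 0.224 in *Smad4 (Stella)* ovaries and 0.585 in testes against control ovaries. Of the 5 germ cell markers, *Dppa3* and *Dnd1* were called higher in DKO than in control ovaries, by 2.33 and 2.49, while *Ddx4*, *Dazl* (3.39 and 3.47) and *Mael* (4.62 and 4.59) were not. The summed linear level of the 5 was 104 to 135 in DKO ovaries and 68.8 to 95.5 in control ovaries, where the mean of *Dppa3* was 5.22 and 2.89 on the log2 scale. *Dppa3* was at 4.11 in control ovary 1, which carried Cre, and at 2.19 and 2.35 in control ovaries 2 and 3, which did not. *Dnd1* was at 0.83, -1.19 and -0.48 in the same order. All mutant ovaries carried Cre, and its part in these 2 calls was not tested.

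Markers of somatic cells were mostly level between the ovary groups. Of 5 Sertoli genes 0 were called in DKO or *Smad4 (Stella)* against control ovaries and 5 were higher in testes, with a summed level of 1.63 to 2.51 in DKO, 1.90 to 2.32 in control ovaries and 98.3 to 110 in testes. Of 5 pregranulosa genes 0 were called in either mutant and 5 were lower in testes. Of 4 fetal Leydig genes 0 were called in either mutant and 4 were higher in testes. The Sertoli gene *Amh* and the Leydig gene *Cyp11a1* passed the filter on dim probes through the testes only. Each was well above background on at most 1 array of an ovary group. The pregranulosa genes *Foxl2* and *Irx3* passed through the ovaries only. The testis calls of these genes were thus favoured in advance. Of 4 endothelial and 4 erythroid genes 0 were called in either mutant. Over all genes 14.7% were called in DKO ovaries, 0.138% in *Smad4 (Stella)* ovaries and 33.8% in testes, each against control ovaries. In DKO ovaries the macrophage gene *Cd68* was called higher by 0.72, with the sum of 3 macrophage genes at 0.936 to 1 beside 0.698 to 0.749 in control ovaries. The mesonephros gene *Lhx1* was called higher by 1.54, with 4 such genes summing to 0.417 to 2.53 beside 0.173 to 1.67. The upper end of each range was a single array with a high level of *Cdh16*, DKO ovary 3 (1.2, beside -2.14 and -2.91) and control ovary 3 (0.62, beside -4.15 and -2.84), and *Cdh16* was not called. The part of these markers in the rise of *Nodal* and *Lefty1* was not tested.

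Of 21 further genes of the Nodal and activin pathway 19 could be tested, *Eomes* and *Mixl1* being too dim. In DKO ovaries 4 were called higher than in control ovaries and 0 lower, with a median difference of 0.12. In *Smad4 (Stella)* ovaries 0 were called. Between testes and control ovaries 7 were higher and 3 lower, with a median of 0.34. These shares stand beside the backgrounds of all genes given above and do not set the list apart. Of the genes higher in testes, *Cer1*, *Gsc* and *Otx2* passed the filter on dim probes through the testes only. Their calls there were thus favoured in advance.

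Among the ligands, *Gdf3*, which like Nodal uses Cripto, was at -2.93, -2.98 and -3.76 in DKO ovaries and at -4.77, -6.22 and -6.26 in control ovaries, of which 1 was well above background. The gene thus did not pass the filter on dim probes through control ovaries, and higher values in other groups were favoured in advance. *Gdf3* rose by 2.53 ± 0.41 in DKO ovaries (limma, adjusted p = 0.00204) and by 2.05 ± 0.45 in testes, where 1 outlier spot left 2 arrays (limma, adjusted p = 0.00467). It was also higher in DKO than in *Smad4 (Stella)* ovaries, by 1.66 (limma, adjusted p = 0.0293). The activin subunits behaved otherwise. *Inhba* was at 4.28, 4.16 and 4.33 in testes and at -1.93, -1.03 and -0.22 in control ovaries, a difference of 5.31 ± 0.40 (limma, adjusted p = 3.27e-06), while DKO ovaries were at -1.20, -2.03 and -0.66 and were not called. *Inhbb* was higher in testes by 1.96 ± 0.23 (limma, adjusted p = 6.45e-05), and its DKO difference was 0.38 (limma, adjusted p = 0.281). *Nodal* and *Gdf3* thus rose in DKO ovaries and in testes, whereas both activin subunits were called in testes without a call in DKO ovaries.

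Of the antagonists, *Fst* (follistatin, which binds activin) was lower in testes by 6.44 on the log2 scale (difference -6.44, limma, adjusted p = 1.62e-07), *Dand5* was higher by 1.05, and neither was called in DKO ovaries. *Cer1* was well above background on the 3 testis arrays and on 0 of the others, so that it passed the filter on dim probes through the testes and had to differ there. *Cfc1*, which encodes Cryptic, a relative of Cripto, was at -3.66, -3.43 and -3.25 in DKO ovaries and at -4.93, -4.11 and -4.63 in control ovaries. This was a rise of 1.11 ± 0.21 (limma, adjusted p = 0.00354). *Cfc1* was well above background on 2 control ovary arrays, so it did not pass the filter through control ovaries either. *Acvr1c*, which encodes the type I receptor ALK7, was lower in testes by 1.08 (difference -1.08, limma, adjusted p = 0.00402), as was the convertase gene *Pcsk6* by 0.81 (difference -0.81). *Foxh1*, the DNA-binding partner of the SMADs, was called in no comparison. Among targets and feedback genes, *Skil* rose by 0.90 ± 0.11 in DKO ovaries (limma, adjusted p = 0.000725). *Otx2* was called in DKO ovaries too, although only 1 DKO array and 0 control arrays measured it, so that no fold can be given. *Gsc* was higher in testes by 2.45 (limma, adjusted p = 0.00693). It was well above background on 3 testis, 2 DKO, 1 control ovary and 0 *Smad4 (Stella)* arrays, so that it passed the filter through the testes only. *Smad7* was called in no comparison.

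**Figure D4:**
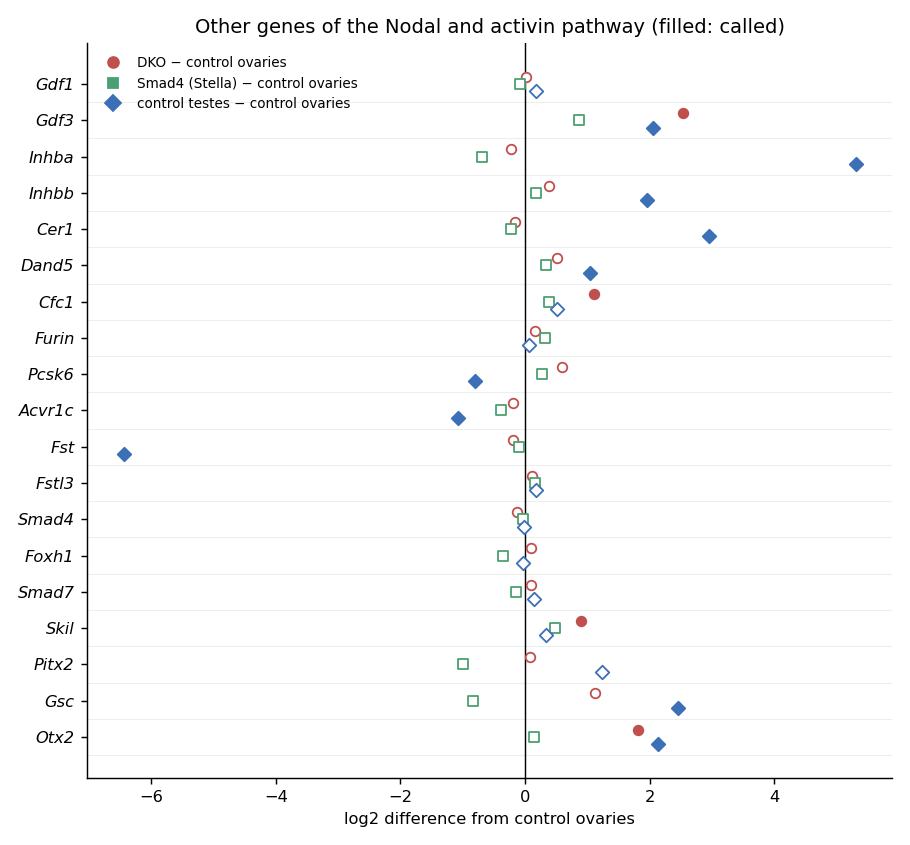
Difference from control ovaries for 19 further genes of the Nodal and activin pathway (horizontal axis: log2 difference; circles: DKO ovaries; squares: *Smad4 (Stella)* ovaries; diamonds: control testes; filled: called; 3 arrays per group, fewer where a spot was an outlier; fitted values are plotted also for *Cer1* and *Otx2*, which were under background in control ovaries). *Gdf3* and *Otx2* were filled in DKO ovaries and in testes, *Cfc1* and *Skil* in DKO ovaries, and *Inhba*, *Inhbb* and *Fst* in testes.

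Genes of the male germ cell program, which follows Nodal signalling in the testis, were set beside the pathway. Of 4 that could be tested 3 were called higher in DKO ovaries, 0 in *Smad4 (Stella)* ovaries and 4 in testes, with medians of 3.14, 0.42 and 5.62. Over all genes 14.7%, 0.138% and 33.8% were called in these comparisons, in either direction. *Nanos2*, the male determinant of germ cells, was at -2.18, -2.17 and -3.70 in DKO ovaries and was measured in 0 of 3 control ovaries. DKO ovaries exceeded control ovaries in *Nanos2* by at least 7.46-fold and testes did so by at least 43-fold. The adjusted p of 0.000367 and 6.08e-06 from limma belong to the fitted differences and not to these bounds. *Nanos2* passed the filter on dim probes through DKO ovaries and testes only, so that higher values there were favoured in advance. *Nanos3* rose by 3.82 and *Tdrd9* by 2.46 in DKO ovaries. *Nanos3* was well above background on 1 control ovary array, so it did not pass the filter through control ovaries. Its higher values in other groups were thus favoured in advance. Of 5 pluripotency genes 4 were called higher in DKO ovaries, *Pou5f1* (2.32), *Sox2* (2.08), *Utf1* (2.61) and *Zfp42* (1.31), and 0 in *Smad4 (Stella)* ovaries. The medians over these genes were 2.08 and 0.83, and *Utf1* in *Smad4 (Stella)* ovaries rested on 1 array. Directly between DKO and *Smad4 (Stella)* ovaries 0 of these 5 were called, with a median of 1.12, beside 8.38% of all genes called. DKO ovary 3 was the lowest of its group for *Nodal*, *Gdf3* and *Nanos2*. It was the highest of its group for *Tdrd9*, *Cfc1* and *Otx2* and lay between the others for *Lefty1*.

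The genes nearest to each factor over the 12 arrays were found by the root-mean-square difference between their centred levels, which is a description and carries no test. Nearest to *Nodal*, whose levels had an SD of 1.45 over the arrays, were *Kremen2* (0.36), *5730510P18Rik* (0.39), *Camk1d* (0.44), *Igbp1b* (0.44) and *Fetub* (0.46). Of these, *Camk1d* and *Igbp1b* were well above background on 0 control and 0 *Smad4 (Stella)* ovary arrays, so their nearness rests partly on dim values. *Kremen2*, which encodes a receptor for the Wnt antagonist Dickkopf, was at -4.43 in control, -4.18 in *Smad4 (Stella)* and -1.99 in DKO ovaries and at -1.30 in testes. Nearest to *Lefty1* (SD 1.96) were *Cphx1* (0.70), *4930503E14Rik* (0.78), *Nlrp14* (0.79), *Slc1a1* (0.94) and *Nlrp4c* (0.98). *Cphx1*, *4930503E14Rik* and *Slc1a1* were well above background on 0 control ovary arrays. *Nlrp14*, an NLR family gene of the germ line, went from -4.24 in control ovaries over -1.95 in *Smad4 (Stella)* ovaries to -0.06 in DKO ovaries and was at -0.83 in testes.

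Nearest to *Lefty2* (SD 2.83) were *Ren1* (0.68), *Dhh* (0.71), *Ms4a10* (0.73), *Gsta1* (0.74) and *Adh1* (0.75). *Ms4a10* was well above background on 0 control and 0 *Smad4 (Stella)* ovary arrays. *Dhh* encodes desert hedgehog, a signal of Sertoli cells, and was at 4.61 in testes and -2.01 in control ovaries. Nearest to *Tdgf1* (SD 0.90) were the dim features *Prok1* (0.34), *AI846148* (0.35), *ENSMUST00000123420* (0.36), *NAP061378-1* (0.36) and *Tmprss3* (0.37).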

How the data were processed

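RNA of 12 E14.5 gonad samples, 3 per group by the sample labels, was measured on single-colour Agilent arrays. For every array the authors deposited a scanner file with spot intensity, background-corrected by Feature Extraction 11.0.1.1 on a design annotated on mm9, and the same intensity, rounded and unscaled, as values for the whole series in a single file. From these, log2 of the processed intensity minus the 75th percentile over non-control spots was calculated here. Spots marked as outliers were dropped, so that a gene could lack a value on an array. A probe was kept if all 3 arrays of some group had it well above background (27311 of 41174, with 11 of the 13 member probes) and the kept probes of a gene were averaged. Symbols came from RefSeq for 27050 probes and otherwise from the array. The number of arrays limits the precision.

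Groups were compared in 1 limma 3.58.1 model over 12 arrays (R 4.3.3, data.table version 1.17.8) with Benjamini-Hochberg adjustment. P-values set a difference between groups against the spread between arrays within groups. That spread includes slide differences where a group lay on more than 1 slide. The model was tested on simulated data for DKO against control ovaries with 15786 genes, where log2 changes of 1, 2 and 3 were recovered for 66.7%, 92.5% and 98.5% of the changed genes. The simulated noise was independent between arrays, without slide effects or a floor for dim spots. Far fewer genes were changed than were called in the real data. These rates therefore do not carry over to dim genes or to the uneven slides.

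The members, lists and alternatives were chosen with earlier results of these data known. Named genes were the 9 members, list genes called in a comparison, up to 4 further examples per list, and the 5 genes nearest to *Nodal*, *Lefty1*, *Lefty2* and *Tdgf1*. The alternatives were quantile normalization, normexp with an offset of 50, those deposited values without scaling, the brightest probe per gene, no filter on dim probes, a block for the slide or for the replicate number, a fit of the compared groups alone, the methods' t-test, no fold threshold, levels relative to *Ddx4*, and leaving out each array. Flooring at the detection limit and 2 comparisons with control testes were added after seeing the data. Promoter and protein sequences were not used here.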

Additional observations from a re-analysis of the deposited data

How the results depend on the processing

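The calls of *Nodal* and *Lefty1* in DKO against control ovaries were lost only with the methods' t-test after Benjamini-Hochberg adjustment, which called 0 of the 9 genes there and 0 between DKO and *Smad4 (Stella)* ovaries. That t-test at an unadjusted p called 1 gene, *Lefty1*, in *Smad4 (Stella)* against control ovaries. Leaving out an array gave 2 to 3 called genes in DKO, 0 in *Smad4 (Stella)* and 3 to 5 in testes against control ovaries, 1 between DKO and *Smad4 (Stella)* ovaries, 1 to 3 between DKO ovaries and testes and 3 between *Smad4 (Stella)* ovaries and testes. Between testes and control ovaries, normexp, the deposited values without scaling, no filter on dim probes and the slide block each left 3 called genes. Between DKO ovaries and testes each of these 4 left 1, and 5 passed on adjusted p alone. Between *Smad4 (Stella)* ovaries and testes the slide block left 1, and flooring gave 2 between DKO and *Smad4 (Stella)* ovaries. The cause was not tested.

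Against control ovaries normexp moved the median of all genes to 0.256 in DKO ovaries and 0.123 in testes. The unscaled deposited values moved it to 0.187 in DKO and 0.403 in *Smad4 (Stella)* ovaries. Signs turned only in differences that were not called. *Nodal* in *Smad4 (Stella)* against control ovaries became 0.28 with the deposited values, 0.96 with the slide block and 0.10 relative to *Ddx4*, and ran from -0.43 to 0.07 when arrays were left out. *Nodal* in DKO ovaries against testes became -0.61 relative to *Ddx4* and ran from -0.29 to 0.52. *Lefty1* in *Smad4 (Stella)* ovaries against testes became -0.21 with normexp, -1.41 with the slide block and -0.11 relative to *Ddx4*, and ran from -0.36 to 0.71. *Lefty1* in DKO ovaries against testes became -0.02 with the slide block and was called at an adjusted p of 0.0273 with only those groups fitted and 0.0209 with flooring. *Tdgf1* in *Smad4 (Stella)* ovaries became 0.94 with the slide block and *Smad2* in testes 0.25 relative to *Ddx4*.

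The replicate number as a block changed no call among the 9 genes. It left 2 called in DKO, 0 in *Smad4 (Stella)* and 5 in testes against control ovaries. The deviations of same-numbered arrays correlated between -0.178 and 0.144 over genes, with 2 of 18 pairs above 0.1, so the numbers were not taken to pair samples. Signal limits *Lefty1* in control ovaries, *Lefty2* in all ovaries and *Tdgf1* in the mutants.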
